A study of Mus musculus with 4 samples.

Results

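Complement and coagulation are the main protease cascades of blood plasma, and most of their proteins are made and secreted by hepatocytes. The 38 genes described here were chosen by name, 19 of the complement system and 19 of clotting and fibrinolysis, out of 23920 genes in the deposited table. Each was found under 1 gene number, and its transcript rows were summed. All 38 had a mean of at least 1 FPKM (fragments scaled to transcript length and library depth), the lower limit for testing, which 9820 genes reached. Bulk liver RNA had been sequenced in 4 libraries, 2 from wild-type mice (WT) and 2 from mice lacking SREBP1c (KO), the insulin-driven form of the lipogenic transcription factor encoded by Srebf1. Both groups were C57BL/6 males, 12 weeks old, killed after a fast of 24 h and 12 h of refeeding. The labels name the genotype but not the allele, and do not say that each library came from another animal, so p-values here reflect the spread among the sequenced samples alone, and that spread may be technical.

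In complement, pattern receptors and their proteases cleave C4, C2 and C3, and the fragments label targets, recruit leukocytes and start a pore built from C5 to C9. In clotting, a chain of serine proteases ends in thrombin, which turns fibrinogen into fibrin. Protein C and protein S brake that chain, and plasmin dissolves the clot. Fibrinogen, C3, C4 and factor B are also acute phase proteins, whose liver mRNA is raised by interleukin-6, interleukin-1 or both.

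The targeted gene checked the labels: Srebf1 (chromosome 11, 60199084 to 60224186, GRCm38) was at 63.7 and 58.2 FPKM in the WT livers but at 8.63 and 6.97 FPKM in the KO livers (log2 difference −2.82, SE 0.13, limma adjusted p = 0.00172, from 7.69e-06 to 0.136 over 13 alternative settings). Over all genes, 7 of 9820 (0.0713%) differed between KO and WT, 1 higher (0.0102%) and 6 lower (0.0611%), by limma's moderated test on log2(FPKM + 1) with Benjamini-Hochberg adjustment at 0.05, and none of the 7 was a complement or clotting gene. Depth was alike: steps of 1 fragment among low values put WT replicate 2 at 0.914, KO replicate 1 at 0.997 and KO replicate 2 at 0.91 of the depth of WT replicate 1, an estimate on which at most 29.7% of the low values agreed. Of 12 hepatocyte markers 11 were found in the table, and 3 of these 11 were highest in KO replicate 2. Their summed level was 31883 FPKM in KO replicate 2 and between 32440 and 35163 in the other libraries, although Alb, the albumin gene, was listed at 0 in all 4. Genes of inflammation set KO replicate 2 apart. Of 29 acute phase genes listed, 28 were highest in KO replicate 2. The summed levels of this list were 9777 and 12071 FPKM in the WT livers, 8403 in KO replicate 1 and 23432 in KO replicate 2. The share of all genes tested that were highest in KO replicate 2 was not counted. It cannot exceed 41.6%, the share in which KO replicate 2 was above both WT libraries. All 11 Kupffer cell and macrophage markers found were also highest in KO replicate 2, at a summed 217 and 175 FPKM in the WT livers, 191 in KO replicate 1 and 299.8 in KO replicate 2. The 6 neutrophil markers found were highest there too (summed 9.67, 12.7, 6.98 and 25.4 FPKM in the same order), and the neutrophil gene Mpo was listed at 0 in WT replicate 1 and KO replicate 1. Of these 6, 2 reached the limit for testing. In KO replicate 2, 7 of 8 endothelial, 2 of 8 stellate, 1 of 6 cholangiocyte and 2 of 6 platelet markers were also highest. So were 2 of 5 erythroid and 1 of 7 lymphocyte markers found. Cholangiocyte markers summed to 25.4 and 23.5 FPKM in the WT livers against 50.3 and 41.7 in the KO livers. Erythroid markers summed to 893 and 296 in the WT livers against 272 and 545 in the KO livers. In bulk RNA, a change in the number of cells of a type and in the RNA per cell cannot be told apart, and the part of these cells and of the acute phase genes in the results below was not tested.

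The 2 KO libraries lay on opposite sides of WT for most of these genes. KO replicate 1 was below both WT libraries in 31 of the 38 (81.6%), against 32.8% of all genes tested, and above both in 5 (13.2%; 39.1% of all genes). KO replicate 2 was above both WT libraries in 28 (73.7%; 41.6% of all genes) and below both in 8 (21.1%; 33.9%). KO replicate 1 was below and KO replicate 2 above both WT libraries for 22 genes (57.9%; 9.92% of all genes), 9 of complement and 13 of clotting, and the opposite arrangement for 0 of 38 (9.42% of all genes). KO replicate 2 exceeded KO replicate 1 in 35 of the 38 (92.1%; 50.5% of all genes), all but C6, C8g and Proc. These patterns were counted after the values had been seen, and the KO libraries share the same WT libraries. The median of the complement genes relative to the WT mean was −0.22 for KO replicate 1 and 0.29 for KO replicate 2 on the log2(FPKM + 1) scale, and that of the clotting genes −0.18 and 0.14. For all genes tested the medians were 0.01 and 0.02.

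**Figure D1:**
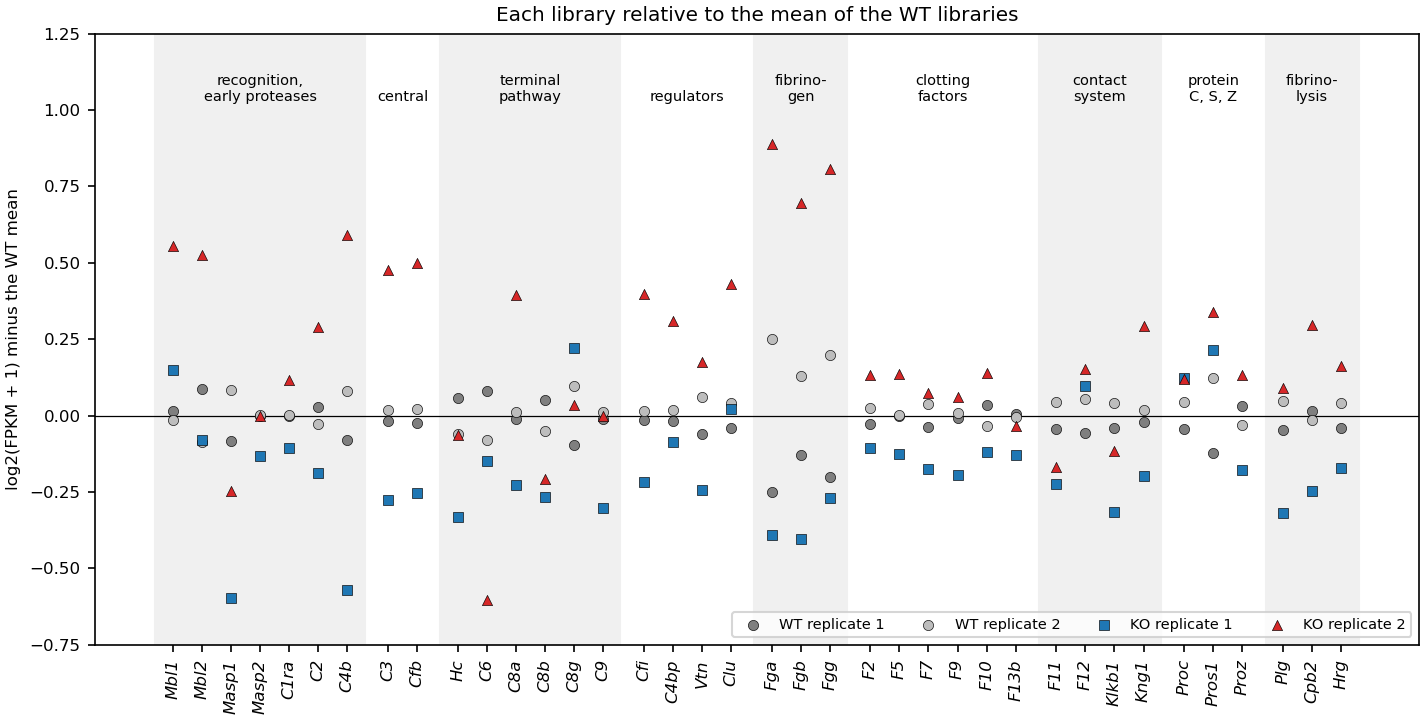
Level of each gene in each library on the log2(FPKM + 1) scale, as the difference from the mean of the WT libraries, with genes grouped by role along the horizontal axis. Squares (KO replicate 1) lie below both circles (WT) for 31 of 38 genes and triangles (KO replicate 2) above both for 28, with the widest gaps for the fibrinogen chains and C4b.

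With both KO libraries against both WT libraries, none of the 38 genes passed the limma threshold, and 1, Masp1, had an unadjusted p under 0.05 (7.75% of all genes did). The groups did not overlap for 12 of the 38 (31.6%; 38.7% of all genes). Both KO libraries were higher in 4 (Mbl1, F12, Proc and Pros1; 10.5% against 22.4% of all genes) and lower in 8 (Masp1, Masp2, Hc, C6, C8b, F11, F13b and Klkb1; 21.1% against 16.4%). The first share is below its background and the second is close to it. The median log2 difference, KO minus WT, was 0.05 for complement and 0.01 for clotting, beside 0.02 for all genes, and 23 of the 38 differences were above 0 (60.5%; 54.6% of all genes). The KO libraries differed from each other by a median of 0.34 log2 units over the 38 genes and the WT libraries by 0.08, against 0.14 and 0.11 over all genes. Because this spread enters the standard error, each KO library was also set against WT on its own. Such a comparison describes 1 library, not the genotype, and the limma test assumes that the lone library varies like the others. KO replicate 2 alone gave 6 genes past the threshold (15.8%; 3.12% of all genes): Fga, Fgb, Fgg, C4b and Mbl1 higher (1.72% of all genes) and C6 lower (1.4%). KO replicate 1 alone gave 0 of 38 (1.19% of all genes, 0.733% higher and 0.458% lower). An unadjusted p under 0.05 was reached by 16 of the 38 with KO replicate 2 alone (42.1%; 15.4% of all genes) and by 10 with KO replicate 1 alone (26.3%; 9.84%). Over all 13 alternative settings the adjusted p of those 6 genes ran from 0.0354 to 1.0, and without WT replicate 1 it was at least 0.9996 for each of the 38.

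**Figure D2:**
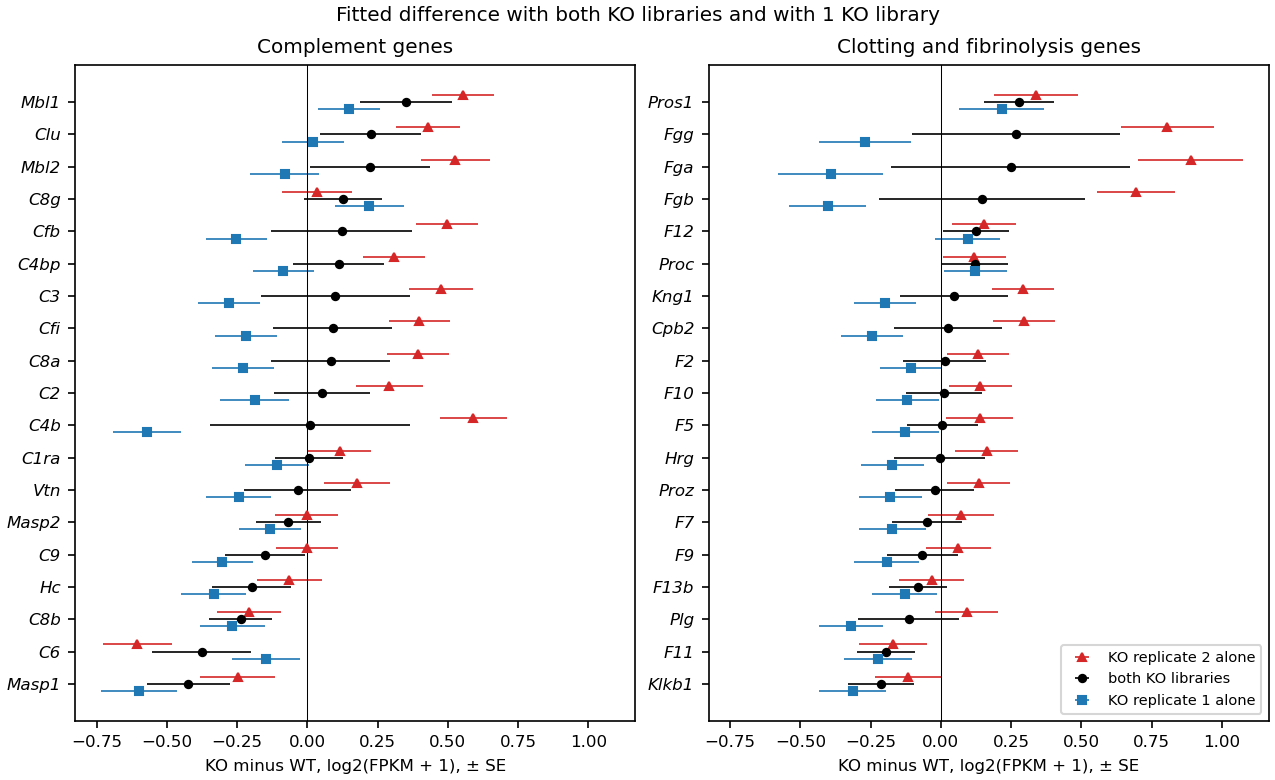
Fitted KO minus WT difference of each gene (log2 scale, with its limma standard error as bars) with both KO libraries (circles), KO replicate 2 alone (triangles) and KO replicate 1 alone (squares). The estimates from single KO libraries fall on opposite sides of 0 for Fga, Fgb, Fgg, C4b and C3, and on the same side for Masp1, C6, C8b, Mbl1 and Pros1.

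Among the complement genes, the recognition molecules and first proteases showed 4 different arrangements. Mbl1 and Mbl2, which encode the mannose-binding lectins that detect microbial sugars, were highest in KO replicate 2. Mbl1 had 224 and 219 FPKM in the WT livers against 245 and 326 in the KO livers, so that the groups did not overlap (log2 difference 0.35, SE 0.16, limma adjusted p = 0.655). For KO replicate 2 alone the difference was 0.56 (adjusted p = 0.0354). Mbl2 had 213 and 188 in the WT livers against 189 and 289 in the KO livers, where KO replicate 1 lay within the WT range. Masp1 and Masp2 encode the serine proteases that travel with these lectins. Masp1 had 22.7 and 25.7 FPKM in the WT livers against 15.6 and 20.2 in the KO livers, lower in both KO libraries (log2 difference −0.42, SE 0.15, adjusted p = 0.584). This was the largest difference among the 38 genes with both KO libraries, and it kept its sign in all 13 alternatives, ranging from −0.60 to −0.25 with 1 library left out. Masp2 had 164.7 and 165.1 in the WT livers against 150.3 and 164.6 in the KO livers, so KO replicate 2 was below WT by less than 1 FPKM.

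C1ra, the protease that starts the classical pathway, had 86.1 and 86.3 FPKM in the WT livers against 80.0 and 93.4 in the KO livers, with a log2 difference of 0.00. That difference turned to −0.02 with upper-quartile scaling. C2, the protease subunit of the classical C3 convertase, had 40.0 and 38.4 in the WT livers against 34.3 and 48.2 in the KO livers. C4b, which encodes complement C4, its partner, had 195 and 218 FPKM in the WT livers, 138 in KO replicate 1 and 311 in KO replicate 2. The KO libraries thus differed 2.25-fold and lay on either side of WT, at −0.57 and 0.59 log2 units, while the fitted difference was 0.01 with a standard error of 0.36. C4b passed with KO replicate 2 alone (adjusted p = 0.0379) and had adjusted p = 0.0815 with KO replicate 1 alone. C4b and C1ra have closely related neighbours, C4a and C1rb, between which reads can be split, so their levels are uncertain. C4a had 11.5 and 12.3 in the WT livers against 10.6 and 15.3 in the KO livers, and C1rb 17.8 and 16.7 in the WT livers against 15.3 and 18.2 in the KO livers, again lowest in KO replicate 1 and highest in KO replicate 2.

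C3, the component on which all pathways converge, was the most abundant complement mRNA per length, with 1697 and 1739 FPKM in the WT livers, 1416 in KO replicate 1 and 2389 in KO replicate 2. Cfb, the protease of the alternative pathway, had 459 and 473 FPKM in the WT livers, 391 in KO replicate 1 and 658 in KO replicate 2. The ratio between the KO libraries was nearly the same for the pair, 1.69-fold for C3 and 1.68-fold for Cfb. The difference of KO replicate 2 alone was 0.48 for C3 (adjusted p = 0.0673) and 0.50 for Cfb (adjusted p = 0.0532), just short of the threshold. Cfb (chromosome 17, 34856374 to 34862514, GRCm38) and C2 (34862602 to 34882100) are direct neighbours and C4b lies close by (34728139 to 34743902). All 3 of these genes were lowest in KO replicate 1 and highest in KO replicate 2, an arrangement shared by 22 of the 38 (57.9%).

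The terminal pathway genes, which encode the pore-forming components, also differed in arrangement. C8a had 199 and 202 FPKM in the WT livers against 171 and 263 in the KO livers, on either side of WT. C8b, whose protein joins that of C8a, had 169 and 157 FPKM in the WT livers against 135 and 141 in the KO livers, lower in both KO libraries (log2 difference −0.24, SE 0.11, adjusted p = 0.665). C8a (chromosome 4, 104815679 to 104876487) and C8b (104766317 to 104804548) are adjacent, yet KO replicate 2 was the highest library for the former and below both WT libraries for the latter. C8g, the third C8 chain, had 258 and 295 in the WT livers against 322 and 283 in the KO livers, and with C6 it was one of the complement genes that were lower in KO replicate 2 than in KO replicate 1. C6, which binds C5b, had 126 and 112 FPKM in the WT livers, 107 in KO replicate 1 and 77.6 in KO replicate 2. It was lower in both KO libraries (log2 difference −0.38, SE 0.18, adjusted p = 0.655) and passed as lower with KO replicate 2 alone (−0.61, adjusted p = 0.0379), the opposite direction to the other 5 genes that passed there. Hc, which encodes C5, had 219 and 202.1 FPKM in the WT livers against 167 and 201.4 in the KO livers, and C9, the subunit that lines the pore, had 232 and 236 in the WT livers against 189.8 and 234 in the KO livers. For both, KO replicate 1 was the low library and KO replicate 2 lay at the level of WT.

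Among the regulators, KO replicate 2 was the highest library for all 4. Cfi, the protease that inactivates C3b and C4b, had 222 and 227 FPKM in the WT livers against 193 and 297 in the KO livers. C4bp, its cofactor for C4b, had 269.6 and 276 in the WT livers against 257 and 338 in the KO livers. Vtn, vitronectin, which blocks the terminal complex, had 1239.5 and 1346 in the WT livers against 1090.2 and 1459.6 in the KO livers, and its fitted difference of −0.03 changed sign with quantile scaling. Clu, clusterin, a chaperone that also binds the terminal complex, had 698 and 739 in the WT livers against 728 and 968 in the KO livers, so KO replicate 1 lay within WT and KO replicate 2 above it (0.43 log2 units, adjusted p = 0.0954 alone).

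**Figure D3:**
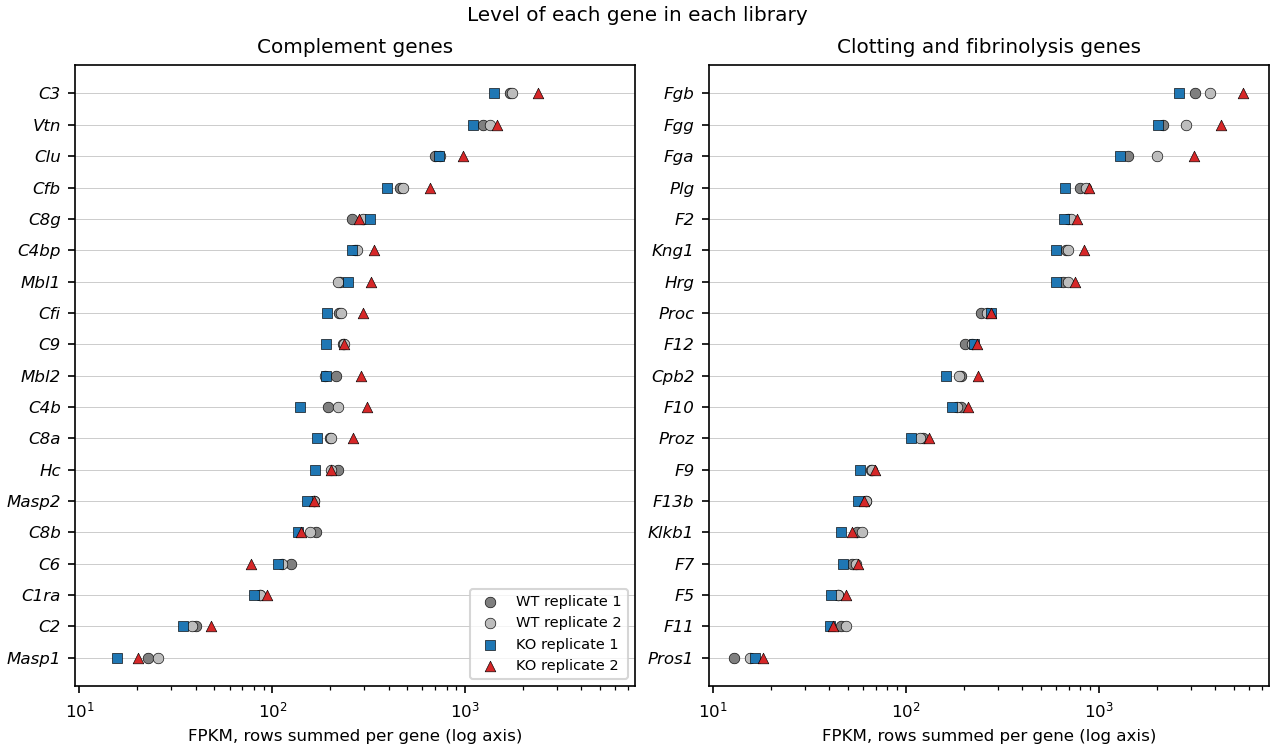
FPKM of each gene, rows summed, in each of the 4 libraries on a log axis, ordered by mean level. The fibrinogen chains and C3 are the most abundant genes of their systems, and the triangles (KO replicate 2) lie furthest to the right for most abundant genes but not for C6, C8b, Masp1 or F11.

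Of the clotting genes, the fibrinogen chains had both the highest levels and the largest differences between the KO libraries. Fga, Fgb and Fgg encode the alpha, beta and gamma chains that assemble into fibrinogen. Fgb had 3166 and 3780.4 FPKM in the WT livers, 2616 in KO replicate 1 and 5605 in KO replicate 2. Fgg had 2138 and 2821 in the WT livers, 2036 in KO replicate 1 and 4295 in KO replicate 2. Fga had 1417 and 2003 in the WT livers, 1283 in KO replicate 1 and 3121 in KO replicate 2. For each chain KO replicate 1 was the lowest and KO replicate 2 the highest of the 4 libraries. The KO libraries differed 2.43-fold for Fga, 2.14-fold for Fgb and 2.11-fold for Fgg, while the median over the 19 clotting genes was 1.198-fold. With both KO libraries the log2 differences were 0.25, 0.15 and 0.27 (SE 0.43, 0.37 and 0.37, limma adjusted p = 0.917, 0.948 and 0.893). With KO replicate 2 alone they were 0.89, 0.70 and 0.81 (adjusted p = 0.0448, 0.0365 and 0.04), and with KO replicate 1 alone −0.39, −0.40 and −0.27, none past the threshold. Fga and Fgg were the 2 genes among the 38 whose level in KO replicate 2 was at least 1.5-fold above the higher WT library (5.26%; 2.98% of all genes). None of the 38 was that far below the lower WT library there (2.3% of all genes), and none was 1.5-fold above (1.45%) or below (1.35%) WT in KO replicate 1. The WT libraries also differed more for Fga, 1.41-fold, than for any other of the 38. Of 28 acute phase genes tested outside the 38, 17 (60.7%; 9.92% of all genes) had KO replicate 1 below and KO replicate 2 above both WT libraries. Among them, Hp, haptoglobin, had 2841 and 3860.2 FPKM in the WT livers against 2453 and 7039 in the KO livers, and Saa1, serum amyloid A, 65.8 and 87.3 in the WT livers, 34.7 in KO replicate 1 and 1244 in KO replicate 2. 

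The chains kept nearly fixed proportions. Fga made up 21.1% and 23.3% of the summed FPKM of the chains in the WT livers and 21.6% and 24.0% in the KO livers. Fgb made up 47.1% and 43.9% in the WT livers and 44.1% and 43.0% in the KO livers, and Fgg 31.8% and 32.8% in the WT livers and 34.3% and 33.0% in the KO livers. The sum itself was 6721 and 8605 in the WT livers, 5935 in KO replicate 1 and 13021 in KO replicate 2. Fga has 2 RefSeq rows, of which NM_001111048 held 70.3% and 70.3% of the gene's FPKM in the WT livers and 67.9% and 70.3% in the KO livers, so the difference between the KO libraries was shared by both rows. The genes lie within one cluster on chromosome 3 (GRCm38), Fgg at 83007724 to 83015056, Fga at 83026153 to 83033627 and Fgb, on the other strand, at 83042246 to 83049863.

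Since the chains moved together across the libraries, the 250 bases before their start sites are shown, from the RefSeq table of build GRCm38.p6, 5′ to 3′ on the gene's own strand. The windows are chr3:83025903-83026152 (plus strand) for Fga, chr3:83049864-83050113 (minus strand) for Fgb and chr3:83007474-83007723 (plus strand) for Fgg. Capitals mark each match, on either strand, to 1 of 5 motifs. These were CTGGGAA (an element bound by STAT3 downstream of interleukin-6), TTNNGNAAT of C/EBP factors, GTTAATNAT of HNF1, CAAAGTCCA of HNF4 and TCACNCCAC, a sterol regulatory element.
Fga: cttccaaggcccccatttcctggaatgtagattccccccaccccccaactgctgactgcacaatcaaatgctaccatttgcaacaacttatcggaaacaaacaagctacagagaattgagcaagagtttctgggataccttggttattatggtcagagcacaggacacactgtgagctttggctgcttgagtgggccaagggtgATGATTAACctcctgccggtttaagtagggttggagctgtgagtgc
Fgb: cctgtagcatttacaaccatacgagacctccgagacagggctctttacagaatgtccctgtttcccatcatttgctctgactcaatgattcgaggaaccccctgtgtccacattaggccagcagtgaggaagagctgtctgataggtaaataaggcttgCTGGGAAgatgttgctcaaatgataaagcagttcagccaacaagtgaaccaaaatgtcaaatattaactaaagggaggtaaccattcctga
Fgg: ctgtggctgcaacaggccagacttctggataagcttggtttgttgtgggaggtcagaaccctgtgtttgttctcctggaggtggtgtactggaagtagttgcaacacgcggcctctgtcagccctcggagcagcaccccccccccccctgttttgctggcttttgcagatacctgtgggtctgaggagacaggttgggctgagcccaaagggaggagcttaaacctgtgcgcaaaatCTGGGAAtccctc

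The Fgb window held 1 CTGGGAA, 91 to 85 bases before the start, and the Fgg window 1, 13 to 7 bases before it. The Fga window held no CTGGGAA, and had an HNF1 match on the opposite strand 46 to 38 bases before the start. Other sequences that STAT3 can bind were not searched. Promoter windows were found for 29 of the 38 genes, 30 windows altogether. The shares that follow are per gene for these 29 and per window for the background. CTGGGAA occurred in those of 5 (C1ra, F9, Fgb, Fgg and Masp2; 17.2%), against 9.1% of all 32851 windows of the same length. TTNNGNAAT occurred in 7 (C1ra, C3, C6, C9, F13b, Hrg and Klkb1; 24.1% against 10.2%) and GTTAATNAT in 4 (C4bp, F13b, Fga and Hc; 13.8% against 0.737%). CAAAGTCCA (0.384% of all windows) and TCACNCCAC (1.05%) were not among the letters of these 29 genes' windows. No motif overlapped another in the windows printed, and a match is a description of the letters, not a site.

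The other clotting factors varied far less. F2, prothrombin, had 694 and 720.0 FPKM in the WT livers against 657 and 774 in the KO livers. F7, which starts clotting with tissue factor, had 52.3 and 55.1 in the WT livers against 47.5 and 56.5 in the KO livers. F9, the haemophilia B factor, had 65.9 and 66.7 in the WT livers against 57.9 and 69.3 in the KO livers. F10, whose active form cleaves prothrombin, had 194 and 185 in the WT livers against 174 and 209 in the KO livers, and F5, its cofactor, 44.6 and 44.6 in the WT livers against 40.8 and 49.2 in the KO livers. In all 5 genes KO replicate 1 was below and KO replicate 2 above both WT libraries, and the KO libraries differed by 1.18- to 1.21-fold. Their fitted differences lay between −0.07 and 0.01, and those of F2, F5 and F10 changed sign with upper-quartile scaling. F13b, the carrier subunit of the factor that crosslinks fibrin, had 62.4 and 62.0 in the WT livers against 56.8 and 60.7 in the KO livers, lower in both KO libraries (log2 difference −0.08, adjusted p = 0.886).

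Of the contact system genes, only F11 and Klkb1 shared an arrangement. F11, which activates factor IX, had 46.0 and 48.9 FPKM in the WT livers against 40.5 and 42.1 in the KO livers. Klkb1, plasma prekallikrein, had 55.7 and 59.0 in the WT livers against 45.9 and 52.8 in the KO livers. These genes were lower in both KO libraries (log2 differences −0.20 and −0.21, SE 0.10 and 0.12, adjusted p = 0.701 and 0.712). They are neighbours on chromosome 8, F11 at 45240659 to 45262055 and Klkb1 at 45266688 to 45294835. F12, which sets off the contact pathway, had 203 and 219.5 in the WT livers against 226 and 235 in the KO livers, higher in both (0.12, SE 0.12, adjusted p = 0.842). Kng1, kininogen, the source of bradykinin, had 675 and 694 in the WT livers, 596 in KO replicate 1 and 839 in KO replicate 2, a 1.41-fold gap between the KO libraries. Its 3 rows kept their order, with NM_023125 holding 68.2% and 68.2% of the gene in the WT livers and 70.6% and 71.8% in the KO livers. Its near copy Kng2, which can take some of its reads, had 115 and 122 in the WT livers against 114 and 158 in the KO livers.

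The anticoagulant genes were not arranged alike. Proc, which encodes protein C, the inactivator of factors V and VIII, had 246 and 262 FPKM in the WT livers against 277 and 276 in the KO livers, the smallest gap between KO libraries among the 38 genes. Of its 4 transcript rows the non-coding NR_045173 held 23.9% and 27.5% in the WT livers and 28.6% and 24.8% in the KO livers, and without it the sums were 188 and 190.4 in the WT livers against 198 and 208 in the KO livers, still apart. Pros1, protein S, its cofactor, had 12.9 and 15.5 in the WT livers against 16.6 and 18.2 in the KO livers, the lowest level of the 38. Both genes were higher in each KO library than in each WT library (log2 differences 0.12 and 0.28, SE 0.12 and 0.13, adjusted p = 0.843 and 0.649). Proz, protein Z, a cofactor in the inhibition of factor Xa, had 123 and 118 in the WT livers against 106 and 132 in the KO livers, on either side of WT.

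In the fibrinolysis genes KO replicate 1 was again the lowest and KO replicate 2 the highest library. Plg, plasminogen, the precursor of plasmin, had 803 and 857 FPKM in the WT livers against 665 and 884 in the KO livers. Cpb2, the carboxypeptidase that protects fibrin from plasmin, had 194 and 189 in the WT livers against 161 and 235 in the KO livers. Its fitted difference of 0.02 turned to −0.001 with upper-quartile scaling. Hrg, histidine-rich glycoprotein, which binds plasminogen and heparin, had 654 and 693 in the WT livers against 597 and 754 in the KO livers. The adjusted p of the 3 genes was 0.906, 0.984 and 0.997 with both KO libraries.

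**Figure D4:**
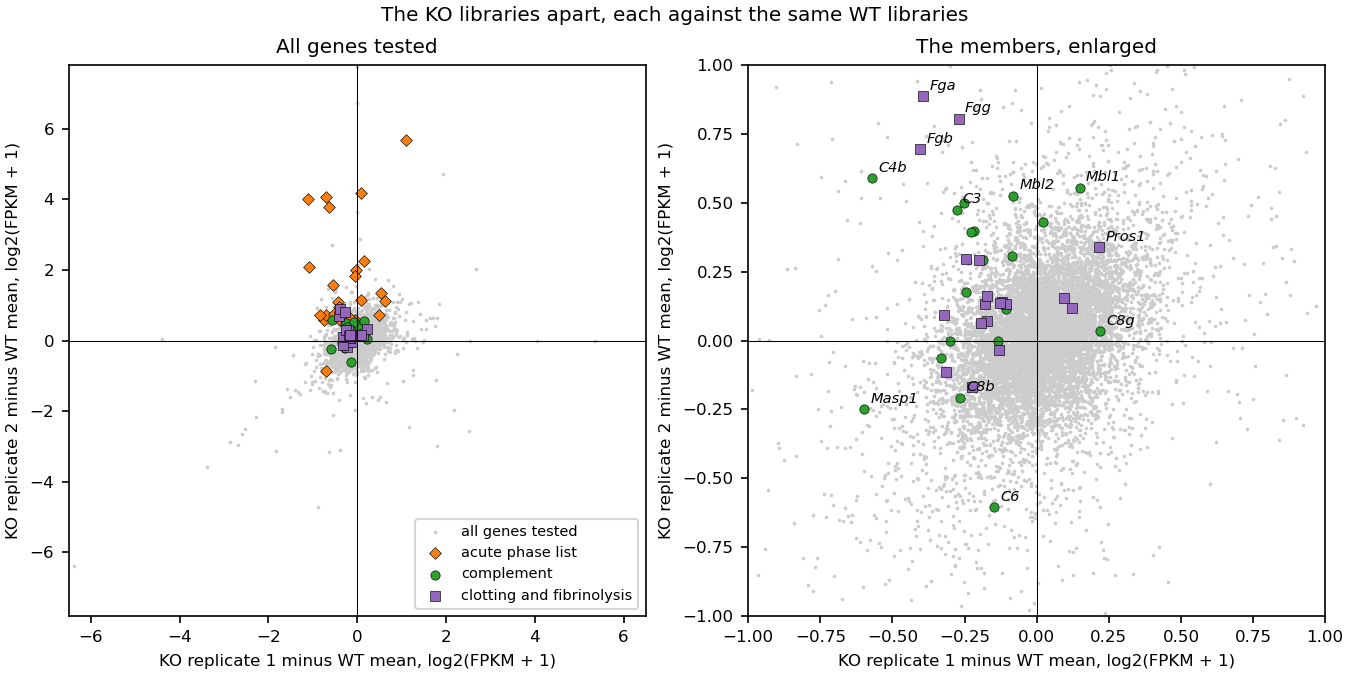
Each gene tested by its difference from the WT mean in KO replicate 1 (horizontal) and KO replicate 2 (vertical), both on the log2(FPKM + 1) scale and against the same WT libraries, with an enlarged view on the right. The 22 of 38 genes with KO replicate 1 below and KO replicate 2 above both WT libraries lie at upper left, as does Mbl2. Of the 38, the fibrinogen chains and C4b are outermost there, while C6 lies lowest and Masp1 at lower left.

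The wider pathways were read from 2 further lists. Of 38 other complement names 32 were found and 23 tested, and of 38 other clotting names 38 were found and 23 tested, and none passed with both KO libraries. An unadjusted p under 0.05 by limma was reached by Cfd and Colec11 and by Gas6 and Tfpi2 (8.7% of each list, 7.75% of all genes). The groups did not overlap for 6 of the 23 complement genes (26.1%) and 8 of the 23 clotting genes (34.8%), against 38.7% of all genes. Cfd, adipsin, the protease that activates factor B and a product of fat cells, had 0.437 and 0.120 FPKM in the WT livers, 3.83 in KO replicate 1 and 32.1 in KO replicate 2 (log2 difference 3.32, SE 0.82, adjusted p = 0.406). Its WT mean of 0.278 FPKM was under the limit for testing, so it was tested only because of its KO values. Colec11, a collectin that works with the Masp proteases, had 8.08 and 9.22 in the WT livers against 11.9 and 13.3 in the KO livers (0.50, SE 0.12, adjusted p = 0.402), higher in both KO libraries. Serping1, the C1 inhibitor, had 356 and 381 in the WT livers against 307 and 469 in the KO livers. Serping1 thus followed C3 and Cfb in the order of the libraries.

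C1qa, C1qb and C1qc encode the recognition subunit of the classical pathway, which macrophages make. C1qa had 24.9 and 24.2 FPKM in the WT livers against 26.4 and 39.5 in the KO livers, C1qb 33.0 and 28.0 in the WT livers against 30.7 and 47.5 in the KO livers, and C1qc 28.2 and 22.1 in the WT livers against 25.7 and 39.5 in the KO livers. All were highest in KO replicate 2, and C1qa passed with that library alone (log2 difference 0.67, adjusted p = 0.0283, up to 0.9996 with another library left out). This is the library where the other macrophage markers were highest too. C1rl and Cfhr2 were lower in both KO libraries, with 78.3 and 73.9 in the WT livers against 66.8 and 59.2 in the KO livers for C1rl and 329 and 341 in the WT livers against 304 and 298 in the KO livers for Cfhr2.

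Among the other clotting genes, Gas6, a vitamin K-dependent ligand of TAM receptors, had 10.2 and 10.5 FPKM in the WT livers, 12.6 in KO replicate 1 and 24.6 in KO replicate 2 (log2 difference 0.71, SE 0.28, adjusted p = 0.627). With 1 library left out the difference ranged from 0.26 to 1.17 and the adjusted p from 0.00457, with KO replicate 2 alone, to 0.9996. Vkorc1, which recycles vitamin K, had 177 and 190.5 in the WT livers against 208 and 229 in the KO livers, and Adamts13, the protease of von Willebrand factor, 1.64 and 1.64 in the WT livers against 1.79 and 1.75 in the KO livers. These were higher in both KO libraries. Tfpi2, a Kunitz inhibitor, had 45.0 and 45.9 in the WT livers against 37.5 and 36.1 in the KO livers (−0.30, SE 0.10, adjusted p = 0.57). F2r, the thrombin receptor, had 11.4 and 10.6 in the WT livers against 9.81 and 7.51 in the KO livers, and Serpind1, heparin cofactor II, 263 and 263 in the WT livers against 232 and 245 in the KO livers. Serpinc1, antithrombin, the main inhibitor of thrombin, had 894 and 916 in the WT livers against 859 and 835 in the KO livers. These inhibitors and the receptor were lower in both KO libraries, unlike the fibrinogen chains, and none passed. In this list 5 of the 23 genes tested were lower in both KO libraries (21.7%; 16.4% of all genes). KO replicate 2 was above both WT libraries in 11 (47.8%; 41.6% of all genes). These 11 included the inhibitor genes Serpina10, Pzp, Serpinf2 and Tfpi, so the inhibitors of the list did not share a direction. F3, tissue factor, had 1.23 and 1.00 in the WT livers against 1.499 and 0.928 in the KO livers.

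Except for Orm1, the 8 acute phase genes fixed for naming had larger ratios between the KO libraries than any of the 38. Some other genes of that list did not, such as Crp at 1.27-fold, Cebpd at 1.23-fold and Hamp2 at 0.88-fold. Over the 28 acute phase genes tested, the KO libraries differed by a median of 1.35 log2 units, against 0.34 over the 38. Saa2 had 22.6 and 23.7 FPKM in the WT livers, 13.8 in KO replicate 1 and 407 in KO replicate 2. Saa3 had 3.66 and 3.40 in the WT livers against 4.01 and 20.5 in the KO livers. Orm1, orosomucoid, had 1117 and 1219.7 in the WT livers against 815 and 1948 in the KO livers, and Orm2 27.5 and 33.7 in the WT livers against 13.8 and 133 in the KO livers. Lcn2, lipocalin 2, had 8.99 and 15.1 in the WT livers against 7.19 and 172 in the KO livers, and Mt2, a metallothionein, 3.74 and 3.29 in the WT livers against 8.67 and 230.3 in the KO livers. Of 28 acute phase genes tested, 22 passed with KO replicate 2 alone (78.6%; 3.12% of all genes), all higher except Hamp2, and 6 with KO replicate 1 alone (21.4%; 1.19% of all genes), all lower except Mt2.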

How the data were processed

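Liver RNA of 2 WT and 2 KO samples was measured by RNA-seq. The authors deposited FPKM values for RefSeq transcripts, per the file headers, and the submitters' processing notes name Bowtie, TopHat and the build mm10. How FPKM were computed, with which annotation release and whether by strand, is not given in the sources used here. Altogether 33170 rows were summed per gene number (23920 genes, 5009 with several rows), which can hide changes between transcripts. Genes with a mean of at least 1 FPKM were tested on log2(FPKM + 1) with limma 3.58.1 in R 4.3.3, with an intensity trend, on all 9820 genes together. Adding 1 understates the change of low genes. Values of FPKM hide the number of fragments, so no count test or interval was used. With 2 libraries a group, an exact permutation test was not used for single genes. The method was tested on simulated data in which the spread of a gene was the same in both groups. Fits with a single KO library were not simulated. Groups and replicate numbers came from the sample titles.

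The 38 members and all lists were chosen with earlier results of these data known. All members are named. Of the 2 further lists the genes named are any past the threshold, up to 3 in each direction by p whose groups did not overlap, and 8 fixed genes, of which some are not reported here. Of the acute phase list 8 fixed genes are named, and C4a, C1rb and Kng2 were added as near copies of members. Outside this rule, Crp, Cebpd and Hamp2 of the acute phase list are named. So are Serpina10, Pzp, Serpinf2 and Tfpi of the other clotting list. Motifs were searched with python 3.11.15, and coordinates are those of RefSeq for GRCm38.p6, the assembly called mm10. The 13 alternatives left out each library in turn, added 0.1 or 0.5 in place of 1, dropped the filter or raised it to 5 FPKM, scaled by quantiles or by the upper quartile, took only the strongest transcript of a gene, dropped the trend, or used replicate numbers as a block.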

Additional observations from a re-analysis of the deposited data

How the results depend on the processing

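No paired block was used in the main analysis, because the labels give the replicate numbers no meaning beyond a name: over genes, same-numbered samples had deviations from their group means that correlated at r = 0.167, and there are only 2 pairs. With the replicate block 19 genes passed the limma threshold in place of 7, and 0 of the 38.

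All genes past the threshold numbered 11 with a pseudocount of 0.1, 0 without the filter, 3 with the filter raised to 5 FPKM, 4 with quantile scaling, 4 with the strongest transcript, and 1 to 306 with a library left out (306 without KO replicate 1, 117 without KO replicate 2). Without the filter Srebf1 differed by −2.82 at adjusted p = 0.0883, with WT replicate 1 left out at 0.136 and with WT replicate 2 left out at 0.0923, and its difference ranged from −2.96 to −2.68 with a library left out. The causes were not tested.

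None of the 38 passed except without KO replicate 1, so with a library left out the number past the threshold ranged from 0 to 3 in complement and from 0 to 3 in clotting. The median difference then ranged from −0.22 to 0.29 in complement and from −0.18 to 0.14 in clotting. The complement median in KO replicate 1 was −0.25 with either scaling (−0.252 upper-quartile, −0.248 quantile), and in KO replicate 2 it ranged from 0.26 to 0.29 with a WT library left out. With either scaling, the strongest transcript or a WT library left out, KO replicate 1 was below the WT libraries used in 31 to 32 of the 38, KO replicate 2 above them in 28 to 30, and both at once in 23 to 25.

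The near-zero differences changed sign with the scaling. With upper-quartile scaling they were −0.0214 for C1ra, −0.0164 for C4b, −0.0131 for F2, −0.0200 for F5, −0.0155 for F10 and −0.00102 for Cpb2. With quantile scaling they were −0.00392 for C1ra, 0.00475 for Vtn, −0.0173 for F2 and −0.0239 for F5. With the strongest transcript F10 had −0.0113. No scaling moved the median of all genes by over 0.1.

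With a library left out, these differences, which changed sign, spanned the following log2 ranges: Mbl2 −0.0805 to 0.53, C1ra −0.11 to 0.12, C2 −0.19 to 0.29, C4b −0.57 to 0.59, C3 −0.28 to 0.48, Cfb −0.25 to 0.50, C8a −0.23 to 0.39, Cfi −0.22 to 0.40, C4bp −0.0851 to 0.31, Vtn −0.24 to 0.18. Further ranges were Fga −0.39 to 0.89, Fgb −0.40 to 0.70, Fgg −0.27 to 0.81, F2 −0.11 to 0.13, F5 −0.13 to 0.14, F7 −0.17 to 0.0723, F9 −0.19 to 0.0623, F10 −0.12 to 0.14, Kng1 −0.20 to 0.29, Proz −0.18 to 0.13. The remaining ones were Plg −0.32 to 0.0915, Cpb2 −0.25 to 0.30, Hrg −0.17 to 0.16, Serping1 −0.26 to 0.35, F3 −0.13 to 0.24, Saa1 −1.11 to 4.02, Saa2 −0.71 to 4.08, Orm1 −0.52 to 0.74, Orm2 −1.09 to 2.09, Hp −0.43 to 1.09, Lcn2 −0.63 to 3.77. The 2 libraries a group limit the precision of every difference, and the fragment counts behind the values are unknown.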
